A study of Mus musculus with 4 samples.

Results

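The genes described here are the major histocompatibility complex (MHC) class II genes of the mouse, with the invariant chain gene that serves them, in regulatory T cells (Treg, CD4 T cells that express the transcription factor Foxp3). The list held 8 genes, namely H2-Aa, H2-Ab1, H2-Eb1, Cd74, Ciita, H2-DMa, H2-Oa and H2-Ob. A gene was represented by its brightest probe set, by mean log2 intensity over the 4 arrays, among probe sets whose annotation gives exactly 1 gene symbol. That rule found 7 of the 8 members among 22180 genes, each with 1 probe set, so brightness decided nothing between probe sets. Cd74, the invariant chain gene, had no probe set of its own and is not analysed here. The members were chosen by name with earlier results of these arrays known, so they were selected on the log2 differences between the groups compared here. Those differences, and their adjusted p-values over all genes tested, are given as a description and support no choice of members.

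Treg were compared between mice injected with an antibody to DR3, a costimulatory member of the tumour necrosis factor receptor superfamily, and mice injected with an isotype control antibody. All mice were of the strain labelled Foxp3Luci-DTR-4(B6 Albino), and the antibody went into the peritoneum. CD4 cells positive for Foxp3 and green fluorescent protein were sorted 4 days later, so every mouse carried the reporter and had been injected. There were 2 arrays per group, and the labels give neither the age of the mice nor whether replicates were separate animals. All p-values below therefore rest on the scatter among 4 arrays, which may be technical.

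Markers of the labelled cell type were bright on all 4 arrays. Foxp3 had intensities of 3891 and 3825 on the anti-DR3 arrays against 3805 and 3581 on the control arrays, and 11 of the 12 listed Treg and T cell markers had a usable probe set, and all 11 were tested. Among them Ikzf2, the gene of Helios, rose (log2 difference 0.58) and Il2ra, the interleukin 2 receptor alpha chain, fell (log2 difference -0.49, both past the limma threshold, and neither with any array left out). Array medians lay between 40.2 and 42.04. Of 12114 genes tested with limma, 722 passed an adjusted p of 0.05 (Benjamini-Hochberg), which is 5.96%, with 544 higher (4.49%) and 178 lower (1.47%) after anti-DR3. After each array was centred on the median tested gene, these counts were 348 higher and 243 lower.

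Class II molecules are pairs of an alpha and a beta chain that display peptides from the endosomal pathway to CD4 T cells. In the endoplasmic reticulum the pair is plugged by the invariant chain, proteases then cut this chain down to a fragment, and H2-DM exchanges the fragment for a peptide while H2-O restrains H2-DM. B cells, dendritic cells and macrophages make class II in quantity, and transcription of the classical chains depends on the coactivator CIITA, which is recruited by factors bound to conserved promoter elements called the X and Y boxes. Mouse T cells are usually described as low in class II, whereas activated human T cells display it.

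RefSeq promoter windows of GRCm38.p6, running from 250 bases before to 50 after the start, were listed for 5 of the 8 members (H2-Aa, H2-Eb1, H2-DMa, H2-Oa and H2-Ob) and not for H2-Ab1, Ciita or Cd74. The 3 stretches shown are the last 150 bases before the start of a gene that was higher after anti-DR3, of its neighbour that differed little, and of a gene that was lower. Capitals mark matches, on either strand, to ATTGG (the Y box, which reads CCAAT on the other strand), to an X1 box consensus or to TGACGTCA (a full cyclic AMP response element, which the X2 box resembles).
H2-Aa, chr17:34287824-34287973, minus strand: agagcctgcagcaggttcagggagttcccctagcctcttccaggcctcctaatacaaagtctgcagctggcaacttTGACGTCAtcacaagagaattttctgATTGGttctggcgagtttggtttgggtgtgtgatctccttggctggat
H2-Eb1, chr17:34305717-34305866, plus strand: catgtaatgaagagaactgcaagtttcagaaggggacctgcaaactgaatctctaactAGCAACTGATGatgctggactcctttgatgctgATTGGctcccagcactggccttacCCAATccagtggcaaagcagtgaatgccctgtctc
H2-Ob, chr17:34238755-34238904, plus strand: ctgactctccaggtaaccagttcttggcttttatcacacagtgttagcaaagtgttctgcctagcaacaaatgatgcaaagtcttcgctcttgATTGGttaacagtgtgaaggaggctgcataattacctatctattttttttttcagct

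All 5 members with a window held ATTGG, which 37.4% of 32851 RefSeq promoter windows of 300 bases also held. In the stretches shown it began at -48 in H2-Aa, at -59 in H2-Eb1 and at -57 in H2-Ob, counted from the start of the gene. The X1 box consensus was matched in H2-Eb1 at -92 (AGCAACTGATG), in H2-Oa at -141 (AGTGACAGATG) and in 0.968% of all windows. In H2-Ob the stretch AGCAACAAATG at -88 came within 1 mismatch of that consensus, as did a stretch in 20.8% of windows. TGACGTCA was matched in H2-Aa alone of the 5, at -74, and in 1.79% of all windows. A form of the interferon response element, a pair of GAAA with a gap between them, matched 0 of the 5 members and 3.44% of all windows. H2-DMa was listed with 2 windows, of which 1 held ATTGG at -198 and the other none of these motifs. The matches are a description of these letters.

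The chains of the I-A molecule, the class II pair that mice of C57BL/6 descent display, were both higher after anti-DR3. H2-Aa, the alpha chain, had intensities of 78.3 and 69.6 with anti-DR3, against 50.3 and 41.1 with control antibody. Both anti-DR3 arrays lay above both control arrays, by at least 0.47 on the log2 scale. H2-Aa rose 1.62-fold, a log2 difference of 0.70 ± 0.12 (SE, n = 2 arrays per group; limma adjusted p = 0.0367). Its intensity on control replicate 2 lay below that array's median of 42.04, so it passed the filter on dim genes on 3 arrays.

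H2-Ab1, the beta chain of I-A, had intensities of 120.3 and 98.6 on the anti-DR3 arrays against 74.9 and 73.6 on the control arrays. The control arrays agreed within 0.025 on the log2 scale, and the anti-DR3 arrays differed from each other by 0.29, less than the gap of 0.40 between the groups. H2-Ab1 rose 1.47-fold (log2 difference 0.55 ± 0.11, SE, n = 2 per group; limma adjusted p = 0.0490). It was not called after centring on the median of the genes tested (limma adjusted p = 0.0670). In these bulk samples a change in the number of cells of a type and a change in RNA per cell cannot be told apart.

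H2-Eb1, the beta chain of the I-E molecule, differed little. Its intensities were 96.8 and 97.8 with anti-DR3, against 91.8 and 92.8 with control antibody. The groups did not overlap, yet the log2 difference was 0.08 ± 0.077 (limma adjusted p = 0.585). The alpha chain of I-E is not made in mice of the b haplotype, which C57BL/6 carries, because of a deletion at H2-Ea, and H2-Ea was dim on all 4 arrays (19.1 and 14.6 against 16.6 and 17.3). H2-Eb2, a second beta chain gene of the I-E family, had intensities of 29.8 and 39.2 on the anti-DR3 arrays against 44.6 and 48.7 on the control arrays. It was above the array median only in the control group, and its log2 difference of -0.44 ± 0.14 did not pass (limma adjusted p = 0.123).

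None of the tested genes of the peptide editors H2-DM and H2-O passed the threshold, and their log2 differences lay on both sides of 0. H2-DMa, the alpha chain of the catalyst of peptide exchange, had intensities of 163.7 and 172.8 with anti-DR3, against 135.5 and 124.6 with control antibody. The groups were apart by 0.27 on the log2 scale, and the difference of 0.37 ± 0.087 missed the threshold (1.29-fold; limma adjusted p = 0.0651). The genes of its beta chain, H2-DMb1 and H2-DMb2, are close copies and were too dim to be tested. H2-DMb2 had 32.0 and 38.3 against 23.5 and 25.3 in the control group, with no overlap. H2-DMb1 had 18.0 and 21.7 against 24.9 and 18.8, with overlap.

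H2-Oa, the alpha chain of the inhibitor of H2-DM, had intensities of 99.2 and 123.7 on the anti-DR3 arrays against 91.3 and 77.0 on the control arrays. The anti-DR3 arrays differed from each other by 0.32 on the log2 scale, more than the gap of 0.12 between the groups. Its log2 difference was 0.40 ± 0.14 (limma adjusted p = 0.142).

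H2-Ob, the beta chain of the same inhibitor, was the only one of the 7 members whose control arrays both lay above its anti-DR3 arrays. Its intensities were 139.3 on each anti-DR3 array and 231.8 and 185.5 after control antibody. The log2 difference was -0.57 ± 0.12, or 1.49-fold in favour of the control, and just missed the threshold (limma adjusted p = 0.0520). The 2 anti-DR3 values were identical as deposited, which held for 114 of 41345 probe sets between those arrays, or 0.276%, so for this gene the spread within groups came from the control arrays alone.

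Ciita, the coactivator gene itself, had intensities of 70.8 and 64.9 with anti-DR3, against 60.0 and 64.4 with control antibody. The lower anti-DR3 array and the higher control array differed by 0.011 on the log2 scale. Its log2 difference of 0.13 ± 0.090 did not pass (limma adjusted p = 0.434).

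Of the 7 members limma called 2 as higher, beside 4.49% of all genes tested, and 0 as lower, beside 1.47%. The other 5 were not called, and 5.96% of all genes tested were called in either direction. An unadjusted p under 0.05 was reached by 5 of the 7, beside 26.1% of all genes tested. The groups did not overlap for any of the 7, beside 56.1% of all genes tested. The anti-DR3 arrays lay above the control arrays for 6 members and below for 1, where 31.6% of all genes tested lay above and 24.6% below without overlap. The median log2 difference of the members was 0.37, beside 0.010 over all genes tested. Since earlier results were known when the list was made, nothing is read from these counts.

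**Figure D1:**
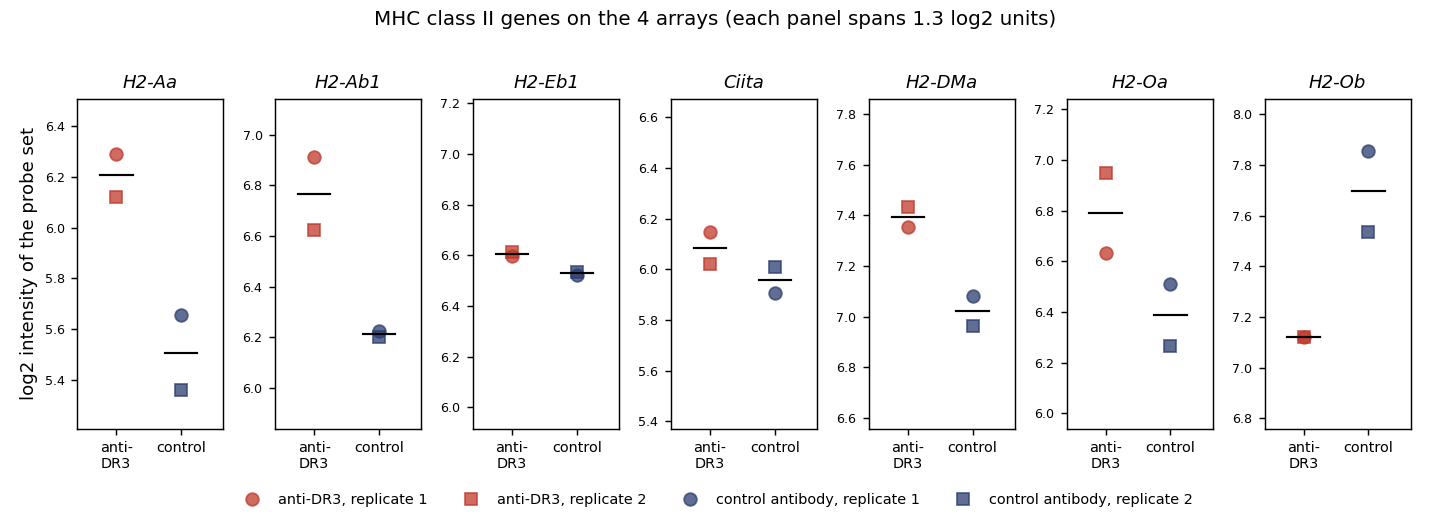
Log2 intensity of the 7 class II genes on each array, with red points for anti-DR3, blue points for control antibody, circles for replicate 1, squares for replicate 2 and a black line at the mean of each group. The vertical axes differ in position but span the same number of log2 units, so that the gaps of 0.47 in H2-Aa and 0.40 in H2-Ab1 can be compared by eye, H2-Eb1 lies nearly level, and H2-Ob is the member that is lower after anti-DR3.

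The replicates did not order the members alike. H2-Aa, H2-Ab1 and Ciita were highest on anti-DR3 replicate 1, and H2-DMa, H2-Oa and H2-Eb1 on anti-DR3 replicate 2. Directions of all 7 members were the same with each array left out, which the absence of overlap fixes beforehand, but no left-out fit called H2-Aa or H2-Ab1. With anti-DR3 replicate 1 left out, then its replicate 2, then replicate 1 and replicate 2 of the control, limma gave H2-Aa an adjusted p of 0.156, 0.150, 0.0584 and 0.0853, with log2 differences of 0.61, 0.78, 0.85 and 0.55. For H2-Ab1 the adjusted p was 0.175, 0.101, 0.132 and 0.129 in the same order, with log2 differences of 0.41, 0.70, 0.57 and 0.54. H2-Ob was called, lower, without control antibody replicate 2 (log2 difference -0.73, limma adjusted p = 0.0413), and its difference was -0.41 without control antibody replicate 1. H2-Oa ran from 0.24 to 0.56.

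**Figure D2:**
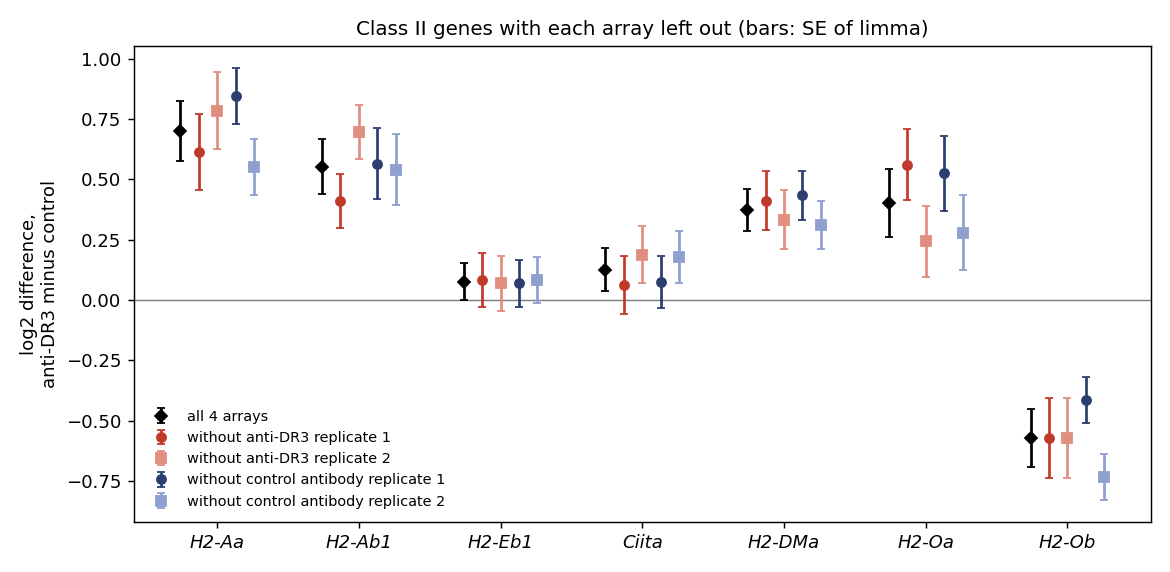
Log2 difference (anti-DR3 minus control antibody) of the 7 class II genes with all 4 arrays (black) and with each array left out (red and pink, an anti-DR3 array; dark and light blue, a control array), with the standard error of limma as bars. H2-Aa stays between 0.55 and 0.85 and H2-Ob between -0.73 and -0.41, while Ciita and H2-Eb1 stay near 0.

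Of 16 genes listed for class II transcription, limma called 1 as higher and 0 as lower, a share near the 5.96% of all genes tested, and the median log2 difference was 0.04. The subunits of RFX, which binds the X box, were Rfx5 at 0.19 ± 0.091, Rfxap at 0.06 ± 0.104 and Rfxank at 0.0028 ± 0.080. The subunits of NF-Y, which binds the Y box, were Nfya at -0.16 ± 0.088, Nfyb at 0.27 ± 0.10 and Nfyc at 0.02 ± 0.096. Creb1, whose product binds the X2 box, had a difference of 0.29 ± 0.096 (limma adjusted p = 0.128).

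The 1 gene called was no subunit of RFX or NF-Y and not Creb1, but Irf4, a transcription factor of activated T cells and plasma cells, with intensities of 384.4 and 428.1 against 294.9 and 293.8 (log2 difference 0.46 ± 0.089, limma adjusted p = 0.0426). Prdm1, the gene of the repressor Blimp-1, which switches Ciita off in plasma cells, had the highest value of the list, 0.70 ± 0.17. Its intensities were 286.2 and 353.3 against 168.8 and 227.6, its replicates lay far apart, and it did not pass (limma adjusted p = 0.0713). Irf4 was not called in any of the 4 fits that leave out an array (adjusted p from 0.111 to 0.230), nor after centring on the median of the genes tested.

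Interferon gamma is the classical inducer of Ciita. Of 8 genes tested from its pathway 0 were called in limma, and 2 had an unadjusted p under 0.05, a share near the 26.1% of all genes tested. These were Jak2 (0.32 ± 0.081, adjusted p = 0.0766) and Irf1 (0.35 ± 0.104, adjusted p = 0.103). With other settings limma called 1 (stricter filter, offset of 16, threshold of 0.10) or 2 (trended robust prior) of the 8. Ifng had intensities of 49.2 and 49.1 on the anti-DR3 arrays against 45.4 and 46.4 on the control arrays, close to the array medians. The receptor chain genes Ifngr1 and Ifngr2 had differences of 0.02 and -0.23.

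The classical class II genes lie together on chromosome 17, among genes of the class I pathway. In RefSeq order the class II genes from H2-Oa to H2-Eb2 are interleaved with Brd2, a chromatin reader, and with Psmb9, Tap1, Psmb8 and Tap2, which supply peptides to class I. Some next neighbours differed in sign. H2-Ob at -0.57 lies directly between Tap2 at 0.38 ± 0.13 and H2-Ab1 at 0.55, and Brd2 at -0.09 ± 0.078 between H2-Oa and H2-DMa. H2-Aa at 0.70 is followed by H2-Eb1 at 0.08 and H2-Eb2 at -0.44.

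Of 14 neighbours tested from a list of 16, limma called 2 as higher, beside 4.49% of all genes tested, and 0 as lower, beside 1.47%. Their median log2 difference was 0.16. Psmb9, a subunit of the immunoproteasome, rose 1.42-fold (267.4 and 265.2 against 178.9 and 196.1; limma adjusted p = 0.0316). Tap1, a chain of the peptide transporter, rose 1.38-fold (917.6 and 955.2 against 655.0 and 700.5; limma adjusted p = 0.0366). Neither was called in any of the 4 fits that leave out an array, nor after centring on the median of the genes tested. From a list of Nlrc5, the class I counterpart of Ciita, and class I genes, 6 were tested. Of these 1 rose, beside 4.49% of all genes tested. It was H2-T23 (1.36-fold, limma adjusted p = 0.0365), which was not called with any array left out nor after centring. Nlrc5 itself stood at 0.20 ± 0.088 and H2-K1 at 0.18 ± 0.082.

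**Figure D3:**
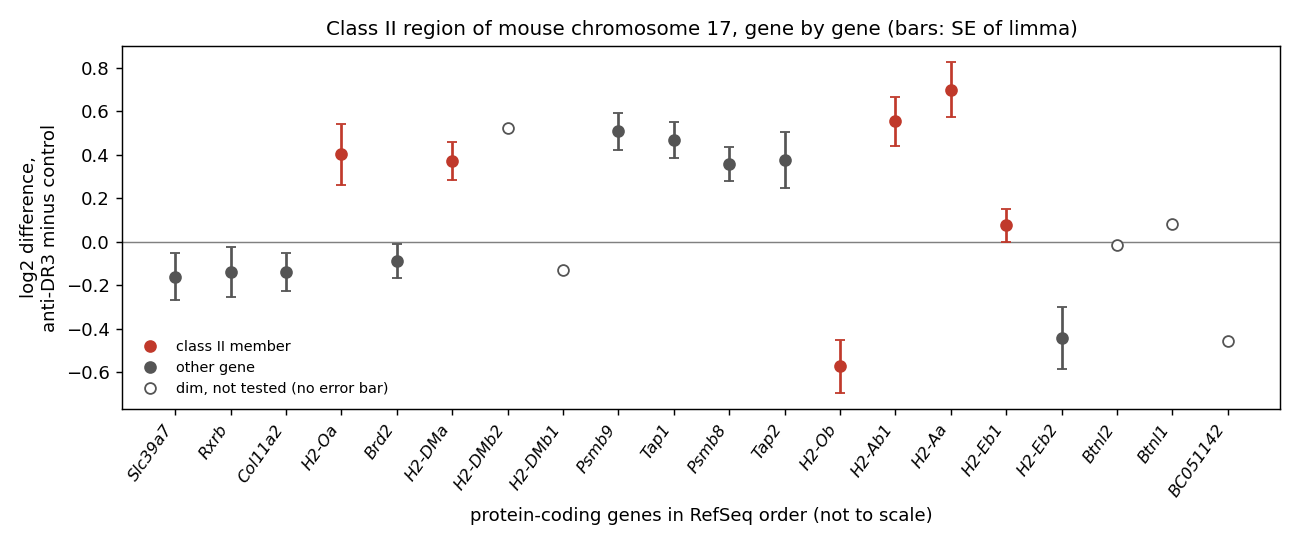
Log2 difference (anti-DR3 minus control antibody) for the 20 protein-coding genes of the class II region and its edges, in RefSeq order and not to scale, with class II members in red, other genes in grey, the standard error of limma as bars and open circles for genes too dim to be tested. The highest point is H2-Aa at 0.70 and the lowest is H2-Ob at -0.57, with H2-Ab1 at 0.55 between them.

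The list for class II processing and turnover held lysosomal proteases and their cystatin inhibitors, a thiol reductase, tetraspanins of class II compartments and ubiquitin ligases. Of 18 genes listed, 15 were tested. Limma called 6 of them as higher, beside 4.49% of all genes tested, and 0 as lower, beside 1.47%. The median log2 difference was 0.40, and the list was chosen with earlier results of these data known. Of the 15, 13 had anti-DR3 arrays above control arrays without overlap, beside 31.6% of all genes tested. The 13 include Ctsh, cathepsin H, which passed the filter on dim genes only through the anti-DR3 arrays. Among the proteases Lgmn, Ctsb and Ctsz were called and Ctss, Ctsd, Ctsh, Ctsl and Sppl2a were not. The lysosomal enzymes act on many substrates besides class II.

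Lgmn, the asparaginyl endopeptidase legumain, had intensities of 227.0 and 211.2 with anti-DR3, against 112.1 and 102.0 with control antibody. It rose 2.05-fold (log2 difference 1.03 ± 0.091, limma adjusted p = 0.00988). Ifi30, the thiol reductase GILT that opens disulphide bonds of antigens, had 398.1 and 382.7 against 221.7 and 220.5 and rose 1.77-fold (0.82 ± 0.078, limma adjusted p = 0.0104). For both genes the groups were far apart and the replicates close together.

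The other rises were Cd82, a tetraspanin found with H2-DM in class II compartments (1.54-fold), Cst7, the protease inhibitor cystatin F (1.48-fold), Ctsb, cathepsin B (1.41-fold), and Ctsz, cathepsin Z (1.3-fold). Ctss, cathepsin S, which makes the last cut of the invariant chain in antigen-presenting cells, had intensities of 975.0 and 1072 against 761.3 and 798.6. Its groups did not overlap, and its difference of 0.39 ± 0.088 did not pass (limma adjusted p = 0.0613). Ctsl, cathepsin L, which makes that cut in thymic epithelium, had the lowest value of the list, -0.34 ± 0.117 (limma adjusted p = 0.141). Sppl2a, the intramembrane protease that clears the remaining fragment of the invariant chain, stood at 0.17 ± 0.079. The ubiquitin ligase genes Marchf1 and Marchf8, whose products send class II to degradation, were too dim to be tested.

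Most of these calls were lost with an array left out. Leaving out either anti-DR3 array left no gene of the list called, leaving out control antibody replicate 1 left Lgmn, and leaving out replicate 2 of that group left Lgmn, Ifi30 and Cd82. The fit with no filter on dim genes called none of them (adjusted p = 0.0625 for Lgmn). Ctsz was not called after centring on the median of the genes tested (limma adjusted p = 0.0731). The stricter filter gave 9 calls. The log2 difference of Lgmn ran from 0.97 to 1.10 over the 4 fits that leave out an array.

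**Figure D4:**
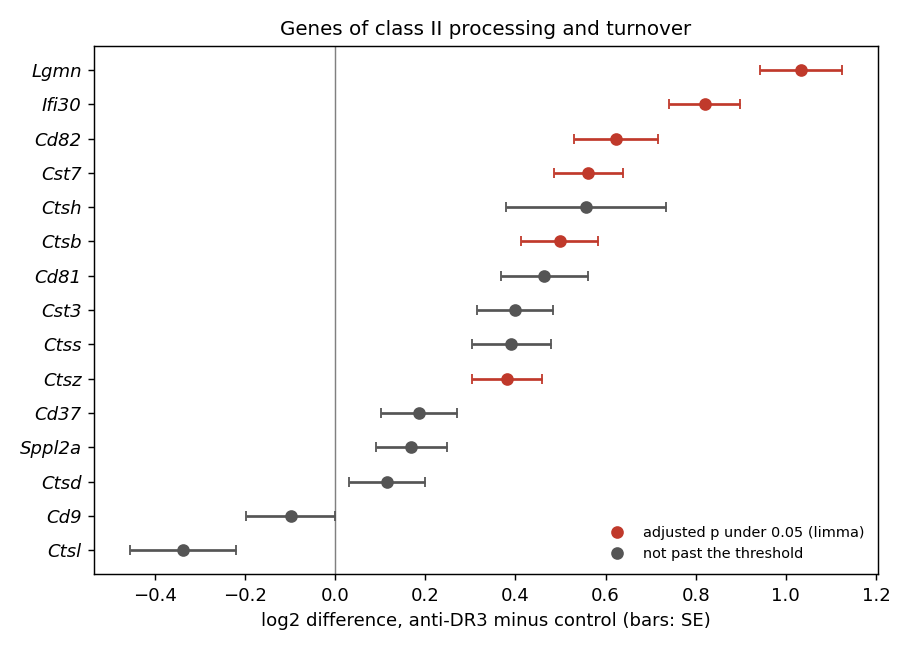
Log2 difference (anti-DR3 minus control antibody) with the standard error of limma for the 15 tested genes of class II processing and turnover, in red where the adjusted p was under 0.05. Lgmn (1.03) and Ifi30 (0.82) lie at the top, and Ctsl (-0.34) is the lowest.

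The invariant chain at the cell surface is a receptor for the cytokine MIF, together with CD44 and chemokine receptors. Of 6 genes listed as its partners and ligands 1 rose, beside 4.49% of all genes tested. It was Cd44, an adhesion receptor of activated T cells, at 1.45-fold (843.1 and 913.3 against 569.0 and 647.2, limma adjusted p = 0.0403). Mif stood at 0.02 ± 0.087 and Ddt, its homologue, at 0.52 ± 0.119 (limma adjusted p = 0.0622). Cd44 was not called with any array left out, nor after centring on the median of the genes tested.

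CD4 and LAG-3 are receptors that bind class II on another cell. Lag3, an inhibitory receptor gene, had intensities of 145.8 and 153.7 on the anti-DR3 arrays against 84.7 and 83.3 on the control arrays, and rose 1.78-fold (log2 difference 0.83 ± 0.080, limma adjusted p = 0.0104). Cd4, the coreceptor for class II, had a difference of 0.30 ± 0.078 and did not pass (limma adjusted p = 0.0776). Lag3 was called in 1 of the 4 fits with an array left out, that without control antibody replicate 2.

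Of 6 genes for costimulatory or inhibitory surface molecules of antigen-presenting cells 2 rose, beside 4.49% of all genes tested. Cd80, a ligand of CD28 and CTLA-4, rose 1.81-fold (389.8 and 397.3 against 237.6 and 198.0; limma adjusted p = 0.0163). Cd274, the ligand of PD-1, rose 1.6-fold (limma adjusted p = 0.0166). Cd86, the other ligand of CD28 and CTLA-4, stood at -0.03 ± 0.082 and Cd40, a receptor of B cells and dendritic cells, at -0.09 ± 0.079. Cd80 was not called with either anti-DR3 array left out, and Cd274 was not called with any array left out.

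B cells express all the class II genes, so B lineage genes on the same arrays were set beside them. Of 10 defining B lineage genes, 9 had a usable probe set and 3 were bright enough to test. Limma called 0 of the 3, beside 5.96% of all genes tested, and 0 reached an unadjusted p of 0.05, beside 26.1%. Cd79b, a chain of the B cell receptor complex, had intensities of 91.9 and 106.6 with anti-DR3, against 93.8 and 81.4 with control antibody, with overlap. The transcription factor gene Pax5 had 41.7 and 33.9 against 35.7 and 40.6, and Cd79a had 30.7 and 23.7 against 22.1 and 24.2. Ms4a1, the gene of CD20, had 16.5 and 19.6 against 18.2 and 20.2.

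The summed intensity of the 9 defining genes was 369.2 and 374.0 on the anti-DR3 arrays against 367.2 and 361.5 on the control arrays. Of the 9, 6 were too dim to be tested. The sum therefore mixes dim and brighter genes and cannot be set against the fold changes of H2-Aa and H2-Ab1. None of the 9 was listed at 0, and the arrays do not separate background from a low level. Ebf1, Ms4a1 and Cd79a were below the median on every array.

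In the whole B lineage list, 23 of 27 genes had a usable probe set and 10 were tested. Limma called 2 as higher, beside 4.49% of all genes tested, and 0 as lower, beside 1.47%, and the median log2 difference was 0.15. Ighm, the constant region of the mu heavy chain, had intensities of 3990 and 4215 against 2539 and 2771 and rose 1.55-fold (limma adjusted p = 0.0211). Another of its probe sets, at 10.82 and 11.06 against 9.75 and 9.77 on the log2 scale, differed by 1.18. The only other one above the filter lay near the array medians, at 5.91 and 5.82 against 5.81 and 5.82, and differed by 0.05. With the mean of all its probe sets the difference was 0.17 and not called (limma adjusted p = 0.250). That mean includes probe sets too dim to be tested. Fcrl1, an Fc receptor-like gene of B cells, rose 1.56-fold (142.9 and 141.2 against 90.8 and 91.5; limma adjusted p = 0.0144). Bank1, a scaffold of B cell receptor signalling, at -0.19, and Fcmr, an Fc receptor for IgM, at -0.23, had control arrays above anti-DR3 arrays and did not pass (limma adjusted p = 0.193 and 0.172). Ighm was highest on anti-DR3 replicate 2, as were H2-DMa, H2-Oa and H2-Eb1. Fcrl1 was highest on anti-DR3 replicate 1, as were H2-Aa, H2-Ab1 and Ciita. The 2 called genes thus had different orders, and nothing is read from the order of 2 arrays. Leaving out Ighm, the summed intensity of the list was 970.5 and 1023 with anti-DR3, against 936.7 and 943.8 with control antibody. The part of B cells in the class II values was not tested beyond these measurements. Both calls were lost when either anti-DR3 array was left out (limma adjusted p = 0.0931 and 0.151 for Ighm, 0.0891 and 0.115 for Fcrl1) and when control antibody replicate 1 was (0.0839 and 0.0633).

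**Figure D5:**
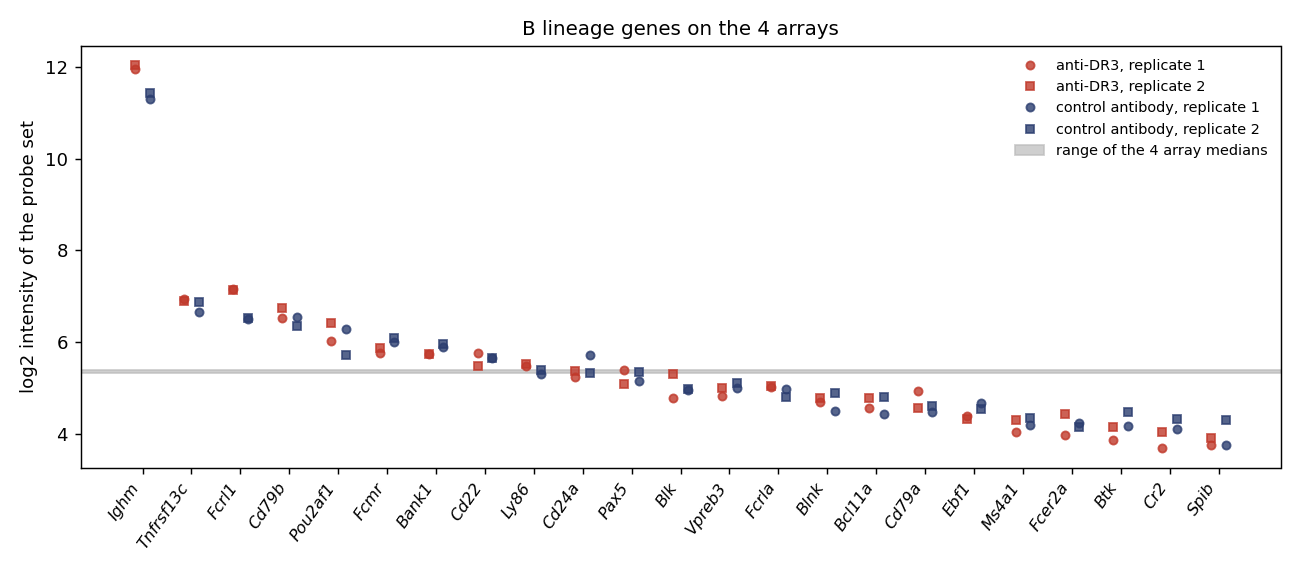
Log2 intensity of the 23 B lineage genes with a usable probe set on each array (red, anti-DR3; blue, control antibody; circles, replicate 1; squares, replicate 2), ordered by their mean, with the range of the 4 array medians as a grey band. Groups are separate and higher after anti-DR3 for Ighm, Fcrl1, Ly86, Tnfrsf13c and Fcrla, and separate and lower for Bank1, Fcmr, Ebf1, Cr2, Vpreb3 and Btk, of which limma called Ighm and Fcrl1, and 13 genes were too dim to be tested.

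Other cells that display class II were checked in the same way. Limma called 0 of 4 tested dendritic cell genes, beside 5.96% of all genes tested. An unadjusted p of 0.05 in limma was reached by 2 (Ccr7 at -0.63 and Cd209a at -0.25), beside 26.1%. Flt3, Zbtb46, Xcr1, Siglech, Batf3, Clec10a and Clec4a2 were too dim to be tested, and the summed intensity of the list was 1445 and 1297 against 1969 and 1661. The highest value in the list was 10.25 on the log2 scale, while Cd209a reached 8.90. A sum of intensities follows the brightest genes, and it was not taken without them, so it gives no number of dendritic cells. Of 10 tested monocyte and macrophage genes 2 rose, beside 4.49% of all genes tested. These were Cybb, a subunit of the phagocyte oxidase, at 2.07-fold (424.0 and 428.4 against 204.2 and 207.3; limma adjusted p = 0.00779), and Csf1r, a growth factor receptor of macrophages, at 1.34-fold (limma adjusted p = 0.0387). Cybb was not called with either anti-DR3 array left out (limma adjusted p = 0.0531 and 0.0761), and Csf1r was not called in any of the 4 such fits nor after centring.

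Other macrophage genes did not pass. Of the 10 tested, 5 had anti-DR3 arrays above control arrays without overlap, beside 31.6% of all genes tested, and 1 below, beside 24.6%. Fcgr3 had the lowest difference of those tested, -0.30, and Tyrobp ran from -0.33 to 0.05 with an array left out. Itgam, the gene of CD11b, which passed the filter only through the anti-DR3 arrays, had a difference of 0.47 ± 0.12 (limma adjusted p = 0.0766), Cd68 0.11 ± 0.091 and C1qa 0.09 ± 0.096, while Adgre1, the gene of F4/80, and Fcgr1 were too dim to be tested and lower after anti-DR3 on both arrays. The summed intensity of the 16 macrophage genes with a probe set was 1185 and 1283 on the anti-DR3 arrays against 916.6 and 942.0 on the control arrays. Without Cybb the sum was 760.7 and 854.5 against 712.4 and 734.6. Such a sum follows the brightest genes. It gives no number of macrophages and cannot be set against the fold changes of H2-Aa and H2-Ab1. Of 4 plasma cell genes tested 1 rose, Irf4, beside 4.49% of all genes tested, with Jchain and Sdc1 too dim to be tested. Of 2 CD8 T cell genes only Cd8b1 was tested, and Cd8a was too dim. Cd8b1 rose 1.41-fold (limma adjusted p = 0.0416), beside 4.49% of all genes tested that were called higher. It was not called with any array left out nor after centring. The part of all these other cells in the class II values was not tested.

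The 5 genes whose centred log2 values over the 4 arrays were nearest those of H2-Aa, among 12107 other genes, were Myb, Serinc5, Mpc1, 1500009L16Rik and Mettl7a1. Their root mean square differences from H2-Aa were 0.038, 0.041, 0.041, 0.041 and 0.042 on the log2 scale. Myb, a transcription factor gene, had log2 intensities of 8.45 and 8.26 with anti-DR3, against 7.89 and 7.52 with control antibody. H2-Aa had 6.29 and 6.12 and then 5.65 and 5.36 on the same arrays. Mettl7a1 had intensities of 61.6 and 52.4 against 38.0 and 29.7, and passed the filter on dim genes only through the anti-DR3 arrays. The likeness rests on 4 arrays, and the other class II members were left out of this comparison.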

How the data were processed

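RNA of sorted Treg was measured on 4 Affymetrix arrays, 2 after anti-DR3 and 2 after control antibody. Per the submitters' processing notes, the authors deposited intensities made by robust multi-array average (RMA), which corrects background, normalizes between arrays and summarises probe sets. The sources used here do not give the software version or genome build. The deposited intensity values are linear, judged from their range, and log2 was taken. Normalizing arrays to a common distribution can hide a shift shared by all genes.

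Of 41345 probe sets, 23521 had 1 gene symbol, 1814 several and 16010 none listed. Entrez identifiers matched 23328 of the 23521 to a RefSeq table of GRCm38.p6, used for names and gene order. Genes above the array median on at least 2 arrays were tested (12114) with limma 3.58.1 in R 4.3.3 (lmFit, eBayes, two-sided), with Benjamini-Hochberg adjustment and a threshold of 0.05. The fit had 2 residual degrees of freedom and a prior worth 3.94. The smallest p of an exact permutation test on 2 against 2 arrays is 0.333, and the number of arrays limits the precision. The fit was also run on simulated data, in which every added difference was larger than that of any member, so that run cannot speak for differences of their size.

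Members, lists, the naming rule (all members, list genes past the threshold, up to 4 others per list by moderated statistic, and the 5 genes most like H2-Aa) and the alternatives were chosen with earlier results of these data known. Other list genes named for their role, the 1-mismatch search, the window of neighbouring genes and the macrophage sum without Cybb were chosen after values were seen. Alternatives covered a replicate block, each array left out, filters, normalization, variance model, array weights, probe set choice, an offset and the threshold.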

Additional observations from a re-analysis of the deposited data

Results flagged for a closer look

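A probe set outside those with a single gene symbol, and so outside every comparison above, separated the groups more widely than any of the 7 members. Probe set 17350982 is listed for both Cd74 and Mir5107, and its signal cannot be assigned to either. Its intensities were 909.6 and 1063 on the anti-DR3 arrays against 350.8 and 414.5 on the control arrays, which is 2.58-fold (log2 difference 1.37 ± 0.14, SE). Fitted with limma together with all 21289 bright probe sets it had an unadjusted p of 0.00028 and an adjusted p of 0.0764, and 76 probe sets had a smaller p. That fit called 0 of the 21289. The only other probe set with several symbols that lists a member, 17343762 (H2-Oa and BC051537), was dim, at 24.6 and 25.5 against 28.8 and 24.2.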

How the results depend on the processing

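Over the alternatives, the 7 members gave 81 values that kept direction and side of the threshold, 17 that lost a call and 12 that gained one, and 0 that turned direction. Direction could turn only with centring and renewed quantile normalization. The other alternatives left the log2 differences unchanged or kept the order of the arrays, in which no member's groups overlapped. Of 111 other listed genes tested 24 changed sign in at least 1 alternative, 0 of them called with all arrays; 137 of their values lost a call and 54 gained one. With all 4 arrays limma called 2 members (2 higher, 0 lower), 722 genes (544 and 178) and 21 listed genes. With each array left out, which assumes that the single array of a group scatters as the other group does, it called 0 to 1 members (0 to 0 higher, 0 to 1 lower), 0 to 312 genes (0 to 245 and 0 to 67) and 0 to 8 listed genes; the fit with 0 genes, without anti-DR3 replicate 2, had 1967 under an unadjusted p of 0.05. Testing all 22180 genes with no filter gave 0 members, 0 higher, 14 genes (14 and 0) and 0 listed genes, with 3573 genes under an unadjusted p of 0.05, and the ordinary linear model gave 0 members, 0 higher, 0 genes (0 and 0) and 0 listed genes, with 2087. The stricter filter, which left out H2-Aa and Ciita as too dim, gave 3 members (2 and 1), 1263 genes (946 and 317) and 32 listed genes. A trended robust prior gave 4 members (3 and 1), 1444 genes (1082 and 362) and 36 listed genes, a threshold of 0.10 gave 4 (3 and 1), 1689 (1171 and 518) and 35, and an offset of 16 gave 4 members (3 and 1). Centring on the median of the genes tested gave 1 member higher and 1 lower (H2-Aa and H2-Ob), 348 genes higher and 13 listed genes, and renewed quantile normalization and array weights likewise gave 1 higher and 1 lower. Every probe set on its own gave 1 member, higher. The causes were not tested. Medians of lists changed sign for defining B lineage genes (-0.19 to 0.073 with an array left out and 0.18 under the stricter filter, against -0.044), plasma cell genes (-0.019 to 0.093 with an array left out and -0.023 after centring, against 0.037) and transcription genes (-0.016 after centring, against 0.044). The replicate block gave 1 member, higher, H2-Aa (adjusted p = 0.0309), with H2-Ab1 at 0.0557, and 563 genes; of listed genes it lost Irf4, Ctsz, Tap1, H2-T23, Csf1r and Cd8b1 and gained Prdm1, Ctsh, Ddt and Ccr7; the labels do not say what replicate numbers share, and deviations of same-numbered arrays correlated at 0.051 over genes.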
